A study of Rattus norvegicus with 91 samples.

Results

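The immediate early genes Fos, Fosb, Jun, Junb, Egr1, Egr2, Arc, Nr4a1, Klf2 and Ier2 were followed in the ventral tegmental area of rats from 10 lines bred for high or low alcohol consumption. They were chosen by name: every probe set whose platform annotation gave exactly 1 gene symbol, equal to 1 of these names, was taken. This gave 18 probe sets for the 10 genes, of 20826 single-gene probe sets for 14217 genes on the array. The lines form 5 pairs, in which the high-consumption line is named first: HAD1 (8 rats) and LAD1 (10), HAD2 (8) and LAD2 (9), P (9) and NP (10), AA (10) and ANA (10), and sP (8) and sNP (9). Each of the 91 rats gave 1 Affymetrix array, hybridised with cRNA amplified from 25 ng of total RNA. The labels name the line and the line pair of each animal and no treatment. The animals' age, sex and drinking history: not given in the sources used here. Asked here was whether the members differed between the high- and the low-consumption line of a pair, and whether they rose and fell together from animal to animal.

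Immediate early genes are transcribed within minutes of a strong stimulus, from factors already present in the cell and without new protein synthesis. In neurons, calcium entry and growth factor signalling activate kinases that phosphorylate the factors bound at the cyclic AMP response element (CRE), a sequence bound by CREB, and at the serum response element, whose core is the CArG box. Fos and Fosb encode partners of the Jun proteins in the AP-1 transcription factor, Egr1 and Egr2 encode zinc finger factors, Nr4a1 an orphan nuclear receptor and Klf2 a Krüppel-like factor best known from endothelium. Ier2 encodes a small nuclear protein, and Arc a synaptic protein that takes part in the removal of AMPA receptors. Their RNA turns over fast, so the level in a tissue sample follows recent events in the animal. In bulk tissue, fewer cells of a type and less RNA per cell cannot be told apart.

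The 250 bases before the start of 6 members were read from RefSeq's promoters on the GRCr8 assembly: Fosb, Junb, Egr1, Egr2, Nr4a1 and Ier2. The other 4 members, Fos, Jun, Arc and Klf2, were not matched. The windows were searched on both strands for the full CRE, TGACGTCA, for its core TGACG, which the full CRE contains, for the CArG box, for the EGR site GCGTGGGCG and for the AP-1 site TGACTCA. Of the 6 windows, 4 are printed. Nr4a1 and Fosb were each in 6 of the 14 positive correlations between members that passed the threshold, and Egr2 and Ier2 in 0. Egr1 was in the most, 7. Its window and that of Junb are not printed, and their matches are given below. Capitals mark the matches, and CGTCA is the core read from the other strand:
Nr4a1 (chr7:134259888-134260137, plus strand): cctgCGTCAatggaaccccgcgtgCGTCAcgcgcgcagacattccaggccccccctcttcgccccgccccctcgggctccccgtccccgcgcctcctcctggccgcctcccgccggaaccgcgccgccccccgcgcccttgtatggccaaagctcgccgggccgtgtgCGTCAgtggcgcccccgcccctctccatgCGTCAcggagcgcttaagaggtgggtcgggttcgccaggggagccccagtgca
Fosb (chr1:88089185-88089434, minus strand): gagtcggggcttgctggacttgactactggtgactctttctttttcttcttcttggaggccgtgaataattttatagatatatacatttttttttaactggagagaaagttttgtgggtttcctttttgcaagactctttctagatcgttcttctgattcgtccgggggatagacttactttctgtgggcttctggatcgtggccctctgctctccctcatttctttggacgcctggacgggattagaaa
Egr2 (chr20:21054442-21054691, minus strand): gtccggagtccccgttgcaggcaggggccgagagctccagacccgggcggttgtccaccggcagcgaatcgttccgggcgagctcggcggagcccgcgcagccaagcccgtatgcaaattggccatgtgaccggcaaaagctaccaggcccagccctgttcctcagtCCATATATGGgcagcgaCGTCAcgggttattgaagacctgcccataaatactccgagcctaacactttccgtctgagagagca
Ier2 (chr19:40399123-40399372, plus strand): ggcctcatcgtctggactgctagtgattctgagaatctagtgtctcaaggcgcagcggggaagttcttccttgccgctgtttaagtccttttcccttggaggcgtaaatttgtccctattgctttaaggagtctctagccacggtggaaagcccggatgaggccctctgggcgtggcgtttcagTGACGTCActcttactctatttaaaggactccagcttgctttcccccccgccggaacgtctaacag
The Nr4a1 window held 4 copies of the core, all on the other strand, between 246 and 49 bases before the start. No motif searched for was found in the Fosb window. Egr2 had a CArG box 83 to 74 bases before the start, followed by a core at 66 to 62. Ier2 had the full CRE at 66 to 59, and Junb a core at 155 to 151. The Egr1 window held 2 CArG boxes, at 105 to 96 and at 83 to 74 bases before the start, and 2 cores. The core was present in 5 of the 6 members against 18.2% of all 33469 promoters of that table, the CArG box in 2 of 6 against 1.5%, and the full CRE in 1 of 6 against 1.59%. The EGR site (0.478% of promoters) and the AP-1 site (4.05%) were in 0 of 6. These matches describe the letters in the windows, and binding was not measured.

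Values are log2 signals, so a difference of 1 is a doubling. The clustering of the arrays' value distributions, cut at 5 sets by choice, placed all arrays of 4 pairs with their own pair. The exceptions were 3 arrays: that labelled AA 1 lay with the P/NP arrays, and those labelled AA 19 and ANA 20 lay with the sP/sNP arrays. The AA/ANA results are therefore given as those of arrays so labelled, and with and without these 3 where they move. Levels were compared only within a pair. Dopamine neuron markers were high in every array of 4 pairs: Th, which encodes the enzyme that makes the dopamine precursor from tyrosine, was at or above 13.32 there. In the P/NP pair Th ran from 8.23 (the array labelled NP 8) to 14.95, and P 10 was the second lowest at 9.12; these samples held uneven amounts of dopamine neuron RNA.

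Fos, Jun, Junb, Egr1, Nr4a1, Klf2 and Ier2 passed the floor for testing, a highest line mean of at least 7.02, and Fosb, Egr2 and Arc lay below it. The highest line means of the latter were 6.51, 6.29 and 6.93. Only 11 of the 18 probe sets passed. A member that passed can still lie under the floor in some lines. In sP the mean of Nr4a1 was 6.91 and that of Junb 6.96, and in sNP that of Junb was 6.96. Where a gene had several probe sets, the brightest was tested. For Fos this was a probe set with a mean of 9.47, while its second one had a mean of 5.69 and was below the floor on all arrays.

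None of the 7 tested members differed between the high- and the low-consumption line in any pair, on average over the pairs, or in the test of whether the difference depended on the pair (limma, Benjamini-Hochberg adjusted p over 11082 genes). The share of all tested genes called was 3.85% for HAD1/LAD1, 5.46% for HAD2/LAD2, 2.94% for AA/ANA and 0% for both P/NP and sP/sNP. It was 1.4% for the average and 6.33% for the test of dependence on the pair. These shares are small, and 0 of 7 says little about a group of this size. An unadjusted p under 0.05 was reached in 3 of the 35 member and pair comparisons: Jun in HAD2/LAD2 and Nr4a1 and Klf2 in sP/sNP. By pair this was 1 of 7 members in HAD2/LAD2, 2 of 7 in sP/sNP and 0 of 7 in the others. The share of all tested genes at that limit was 12.2% in HAD1/LAD1, 15.3% in HAD2/LAD2, 6.4% in P/NP, 12.8% in AA/ANA and 1.12% in sP/sNP. It was 10.1% for the average and 16.4% for the dependence on the pair, in both of which 0 of 7 members passed it. The ranges of both lines overlapped for each of the 10 members in each of the 5 pairs. The share of all tested genes with such an overlap was not computed, so this says nothing particular about the members. The median difference of the 7 members was 0.02 in HAD1/LAD1, -0.04 in HAD2/LAD2, 0.00 in P/NP, -0.04 in AA/ANA and -0.14 in sP/sNP, beside medians over all tested genes of 0.01, 0.02, -0.01, 0.00 and 0.01.

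**Figure D1:**
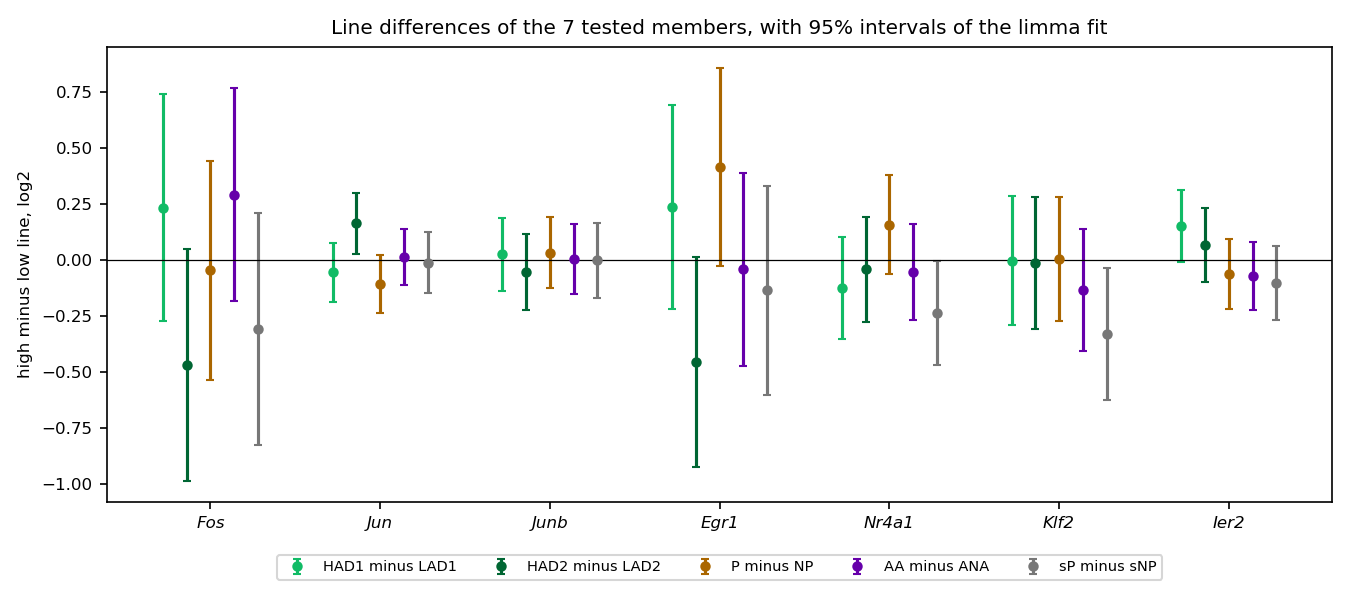
High- minus low-consumption line (vertical axis, log2) for the 7 tested members in the 5 pairs, with 95% intervals of the limma fit. The intervals of Fos and Egr1 are the widest, and those of Jun in HAD2/LAD2 and of Nr4a1 and Klf2 in sP/sNP are the ones that leave out 0.

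Fos, the AP-1 partner most used as a marker of recent neuronal activity, was high and uneven between animals of a line. In HAD2 its signal ran from 9.27 through a median of 10.40 to 11.38, and in LAD2 from 10.13 through 10.87 to 11.74. Most of these ranges coincided, while the arrays labelled HAD2 6, HAD2 7 and HAD2 8, at 9.55, 9.27 and 9.27, lay well below all LAD2 arrays. The difference was -0.47 ± 0.26 (SE, 95% interval -0.99 to 0.05, adjusted p = 0.408 by limma), the largest of any tested member. In HAD1 the lowest, median and highest values were 10.21, 10.55 and 10.77, and in LAD1 9.77, 10.40 and 10.77, a difference of 0.23 ± 0.25. The highest arrays of both lines were level, and the LAD1 range reached further down. The arrays labelled AA gave 7.73, 8.75 and 9.98 and those labelled ANA 7.59, 8.37 and 9.62, a difference of 0.29 ± 0.24. The highest AA array here was AA 1, which lay apart in its value distribution, and without the 3 such arrays the difference was 0.14. The P values were 8.79, 9.48 and 9.91 and the NP values 8.37, 9.43 and 10.30, so NP enclosed P, with a difference of -0.05 ± 0.25. The sP values were 7.62, 8.39 and 8.76 and the sNP values 8.32, 8.58 and 9.34, a difference of -0.31 ± 0.26. The 3 lowest sP arrays lay below all sNP arrays, and the 3 highest sNP arrays lay above all sP arrays. The direction was upward in HAD1/LAD1 and AA/ANA and downward in the other 3 pairs, and the test of dependence on the pair gave F = 1.72 (limma adjusted p = 0.546).

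Egr1, the zinc finger factor induced beside Fos, had the same order of lines as Fos in the HAD and LAD pairs. The HAD2 arrays gave a lowest, median and highest value of 8.96, 9.94 and 10.29, and the LAD2 arrays 9.65, 10.23 and 10.89. The same arrays as for Fos, HAD2 6, HAD2 7 and HAD2 8, lay below all LAD2 arrays at 8.96, 9.04 and 9.33, and 4 LAD2 arrays lay above all HAD2 arrays, with a difference of -0.46 ± 0.23 (95% interval -0.92 to 0.01, limma adjusted p = 0.349). HAD1 gave 9.26, 9.61 and 9.88 and LAD1 9.08, 9.31 and 9.70, a difference of 0.24 ± 0.23. In the P line the values were 7.66, 8.72 and 11.32, and in the NP line 7.796, 8.51 and 9.74. The highest of these is P 10, which stood far above every other array of the pair. The P minus NP difference of 0.42 ± 0.22 (limma adjusted p = 0.794) fell to 0.11 without P 10. The arrays labelled AA (8.06, 8.70 and 9.71) and ANA (8.30, 8.61 and 9.80) differed by -0.04 ± 0.22, or by -0.18 without the 3 arrays apart, and sP (8.30, 8.66 and 9.02) and sNP (8.37, 8.88 and 9.10) by -0.14 ± 0.23. The dependence on the pair was F = 2.179 (limma adjusted p = 0.388).

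**Figure D2:**
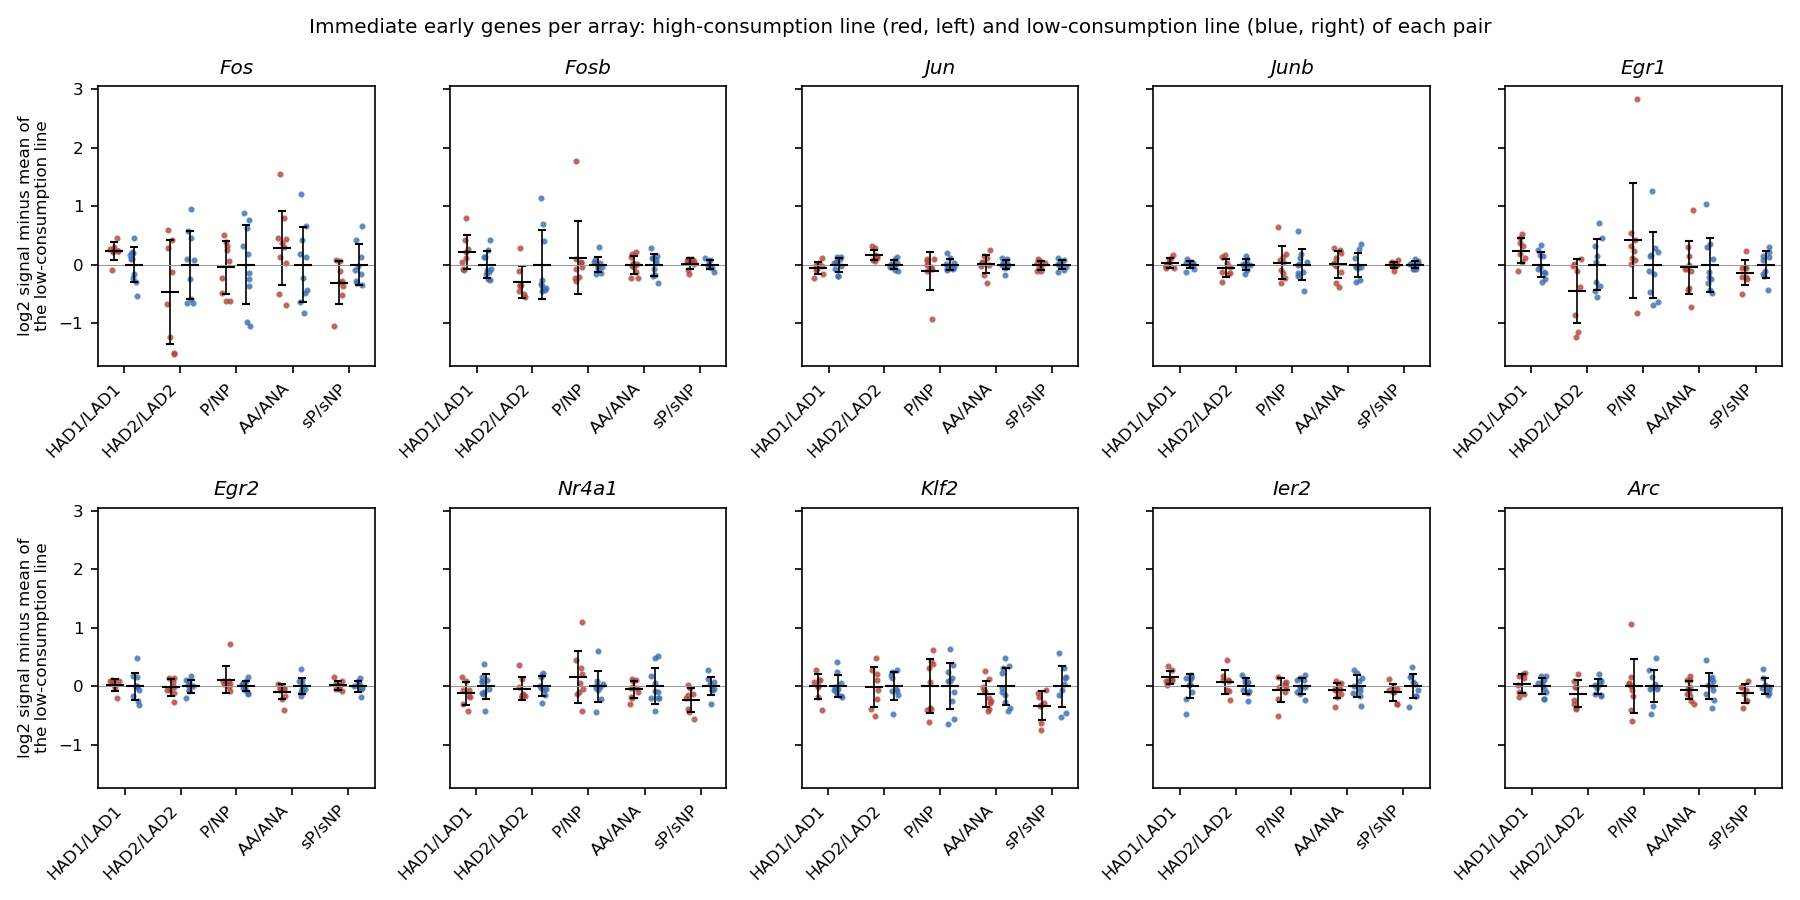
Each point is 1 array (red for the high- and blue for the low-consumption line), the horizontal axis gives the 5 line pairs and the vertical axis the log2 signal minus the mean of the low-consumption line of the pair; bars are mean ± SD of a line. The lines overlap in each panel, Fos and Egr1 spread most, and the isolated P point at the top of the Egr1 and Fosb panels is the array labelled P 10.

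Fosb, whose truncated product ΔFosB is known to build up in the striatum with repeated drug exposure, was dim. It exceeded the floor on 2 of 91 arrays. Its HAD2 values ran from 5.96 through 6.16 to 6.80 and its LAD2 values from 6.06 through 6.18 to 7.65. The medians were nearly level, and the arrays labelled LAD2 12, LAD2 14 and LAD2 20, at 6.92, 7.21 and 7.65, lay above all HAD2 arrays. The difference was -0.29 ± 0.15 (limma adjusted p = 0.432 in a fit without a floor). HAD2 6, HAD2 7 and HAD2 8 were again the lowest of their line. In HAD1/LAD1 the difference was 0.21 ± 0.15 and in P/NP 0.12 ± 0.14, and in the other 2 pairs it was within 0.02 of 0. The signs of Fosb were those of Fos and Egr1 in both HAD and LAD pairs.

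The Jun partners of AP-1 were steadier. Jun in HAD2 ran from 11.58 through 11.66 to 11.83 and in LAD2 from 11.40 through 11.51 to 11.65. Of the 9 LAD2 arrays, 7 lay below all HAD2 arrays, and the 2 highest lay within the HAD2 range. The difference was 0.16 ± 0.07 (unadjusted p = 0.0191, limma adjusted p = 0.188). It passed the threshold in limma on these 17 arrays alone (adjusted p = 0.0459), with array weights (adjusted p = 0.0328), or without P 10, an array of another pair (adjusted p = 0.0323), and was 0.0511 with the arrays of both HAD and LAD pairs. The other 2 probe sets of Jun gave 0.09 ± 0.09 and 0.05 ± 0.09 in HAD2/LAD2. The deviations of the brightest Jun probe set from the line means correlated with those of the other 2 by only r = 0.04 and -0.02 there, and by 0.79 and 0.81 in P/NP. P 10 was the lowest P array for each Jun probe set, at 9.17, 9.30 and 7.84 beside P medians of 10.07, 10.14 and 8.55. The P/NP values of r without it are not given. In the same pair, heat shock genes were higher in HAD2: their mean was 11.77 ± 0.16 (SD, n = 8) against 11.50 ± 0.08 (n = 9), with p = 0.00165 adjusted over the 5 pairs (exact permutation test). The part of this in the Jun result was not tested.

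In the other pairs Jun differed by -0.06 ± 0.07 (HAD1/LAD1), -0.11 ± 0.06 (P/NP), 0.01 ± 0.06 (AA/ANA) and -0.01 ± 0.07 (sP/sNP). The P value again held P 10, with 9.17 against 9.99 to 10.20 on the other P arrays, and without it the difference was -0.00. Junb, a member of AP-1 often described as a weaker activator than Jun, differed least of the 7. Its HAD2 arrays ran from 7.89 through 8.11 to 8.35 and its LAD2 arrays from 8.03 through 8.20 to 8.33, which lay inside the HAD2 range. The 5 differences lay between -0.05 and 0.03, each with a standard error of 0.08.

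Nr4a1, the nuclear receptor, was lower in sP than in sNP before adjustment only. Its sP values were 6.59, 6.96 and 7.16 at the lowest, the median and the highest array, and its sNP values 6.85, 7.12 and 7.43. The lines were shifted but shared most of their range, with a difference of -0.24 ± 0.12 (unadjusted p = 0.0465, limma adjusted p = 0.9997). Elsewhere the difference was -0.12 ± 0.11 (HAD1/LAD1), -0.04 ± 0.12 (HAD2/LAD2), 0.16 ± 0.11 (P/NP) and -0.06 ± 0.11 (AA/ANA). The P/NP value was 0.04 without P 10.

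Klf2, a factor induced by blood flow in endothelial cells and also early after stimulation, was the other member lower in sP before adjustment only. The sP arrays gave 8.93, 9.38 and 9.62, and the sNP arrays 9.15, 9.71 and 10.24. The 5 highest arrays were all sNP, and the difference was -0.33 ± 0.15 (unadjusted p = 0.0276, limma adjusted p = 0.9997). Klf2 had 5 probe sets, and the other 4 gave 0.02, -0.10, -0.21 and 0.01 in this pair; the mean of all 5 gave -0.12. In HAD1/LAD1, HAD2/LAD2 and P/NP its difference was within 0.02 of 0, and in AA/ANA it was -0.14 ± 0.14. Another Klf2 probe set above the floor had the opposite sign in AA/ANA, 0.18 ± 0.08 (unadjusted p = 0.0311, limma adjusted p = 0.308). Of 19 tested endothelial and pericyte markers 0 were called in sP/sNP, and their mean was 9.19 ± 0.09 (SD, n = 8) against 9.21 ± 0.14 (n = 9). The mean of 3 blood cell markers was lower in sP before adjustment only, 9.02 ± 0.19 against 9.27 ± 0.28 (p = 0.0494, or 0.247 adjusted over the 5 pairs, exact permutation test). The red cell genes Alas2 and Hbb each gave -0.38 and the leukocyte gene Ptprc 0.02. Their part in the Nr4a1 and Klf2 values was not tested.

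Ier2 differed little between lines. Its HAD1 arrays ran from 8.72 through 8.81 to 9.05 and its LAD1 arrays from 8.22 through 8.77 to 8.88. The 3 lowest LAD1 arrays and the 2 highest HAD1 arrays fell outside the shared range, and the difference was 0.15 ± 0.08 (limma adjusted p = 0.480). The other pairs lay between -0.10 and 0.07. Arc, the synaptic effector, and Egr2 were below the floor: Arc differed by at most 0.13 (HAD2 lower, -0.13 ± 0.11) and Egr2 by at most 0.11 (P higher, 0.11 ± 0.07), and both were left out of the tested genes.

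The animals of a line differed from each other far more in Fos and Egr1 than in most genes. The within-line SD of Fos was 0.25 in HAD1/LAD1, 0.74 in HAD2/LAD2, 0.58 in P/NP, 0.64 in AA/ANA and 0.36 in sP/sNP. Only 0.171% of the tested genes had a larger SD than Fos in HAD2/LAD2, 0.857% in AA/ANA, 2.59% in sP/sNP, 5.21% in P/NP and 8.83% in HAD1/LAD1. For Egr1 the shares were 0.767% in HAD2/LAD2, 2.08% in AA/ANA, 2.69% in P/NP, 8.31% in sP/sNP and 13.6% in HAD1/LAD1. The P/NP spread of Egr1 includes P 10, at 11.32 against at most 9.02 on the other P arrays. Its SD was 0.99 in P and 0.57 in NP. Klf2 and Nr4a1 were next, with 3.73% to 16.6% of genes above Klf2 and at most 23.7% of genes above Nr4a1. Jun spread less than the median tested gene in 4 pairs, P/NP being the exception, and Junb in 3. The SD of Jun was 0.32 in P, where P 10 was the lowest array, and 0.09 in NP. Ier2 spread more than the median tested gene in 4 pairs, P/NP being the exception. The standard error of the Fos difference was 0.24 to 0.26, beside a median of 0.07 over all tested genes.

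**Figure D3:**
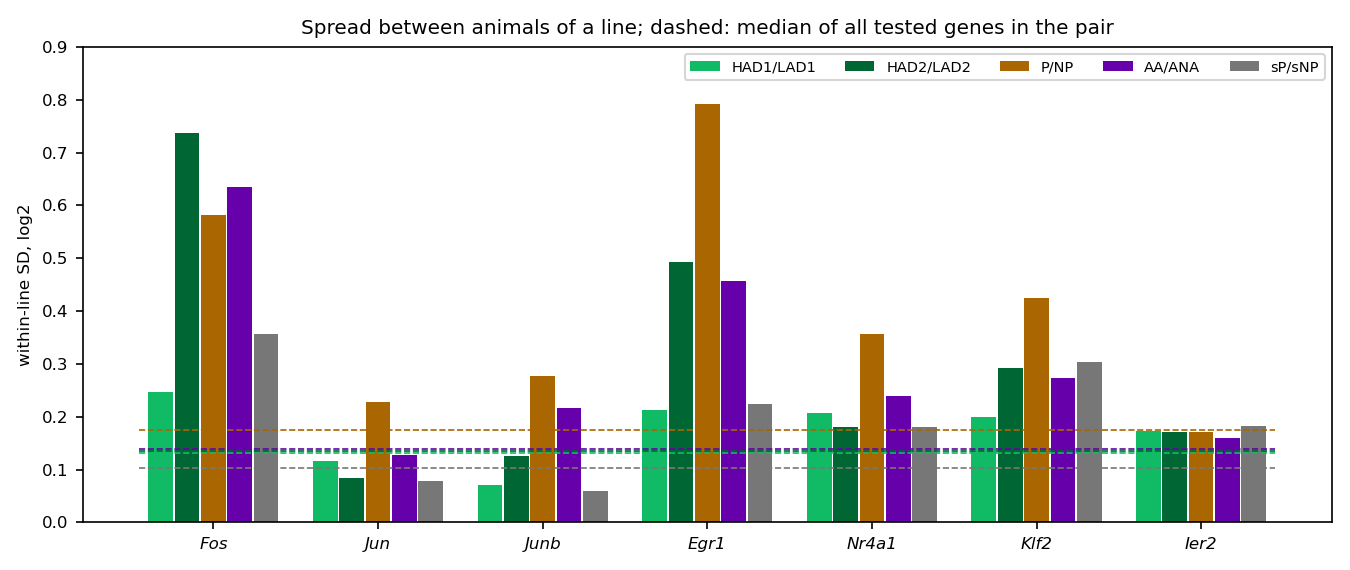
Bars give the within-line SD (log2) of the 7 tested members in each line pair, and dashed lines the median SD of all tested genes in that pair. Fos and Egr1 lie above the dashed line of their pair in every pair, while Jun lies near or below it in all but P/NP.

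The deviations of the members from their line mean were then set against each other within each pair, for 45 pairs of members in 5 line pairs, 225 correlations in all. After adjustment over the 225 permutation p-values, 14 were positive and 1 was negative: 2 in HAD1/LAD1, 5 in HAD2/LAD2, 6 in P/NP including the negative one, 2 in AA/ANA and 0 in sP/sNP. Of the 14, 7 involved Fosb or Arc, which lie below the floor, and 7 lay among the members above it: 1 in HAD1/LAD1, 2 in HAD2/LAD2, 2 in P/NP, 2 in AA/ANA and 0 in sP/sNP. The share of all pairs of tested genes that would pass the same threshold was not computed. The counts alone therefore say nothing particular about the members. The median r over the 45 was 0.145, 0.158, 0.236, 0.197 and -0.007 in these pairs, beside medians of 0.021, 0.034, 0.012, 0.014 and 0.008 over all pairs of tested genes. The 95th percentile over all pairs of tested genes was 0.784 in P/NP and between 0.524 and 0.572 elsewhere, so a given r is more common in P/NP. Over the 21 pairs of members above the floor the median r was 0.365 in HAD1/LAD1, 0.160 in HAD2/LAD2, 0.236 in P/NP, 0.271 in AA/ANA and 0.040 in sP/sNP.

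Fos and Egr1 had the highest single r, in HAD2/LAD2 and in AA/ANA. Over the 5 pairs their median r was 0.489, below Fosb with Egr1 (0.650), Fosb with Nr4a1 (0.640), Egr1 with Nr4a1 (0.583) and Fos with Nr4a1 (0.574). In HAD2/LAD2 r was 0.902 and Spearman's rho 0.870 (n = 17, permutation adjusted p = 0.00113 and 0.00788), and without the 2 arrays farthest from the median of Fos r was 0.888. The arrays labelled AA and ANA gave r = 0.876 and rho = 0.786 (n = 20, permutation adjusted p = 0.00150 and 0.0120), r = 0.753 without the 2 farthest, and r = 0.861 without the 3 arrays that lay apart. Of all pairs of tested genes, 0.0244% and 0.0326% reached such an r in these pairs, while the share was between 0.324% and 11.7% for the other positive correlations past the threshold. In HAD1/LAD1 r was 0.489 and in sP/sNP 0.420, and neither passed adjustment (permutation adjusted p = 0.253 and 0.337). In P/NP r was 0.258 with all arrays and 0.675 without P 10, in which Egr1 was at its highest and Fos was below the P median. Whether r differed between the line pairs was not tested.

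**Figure D4:**
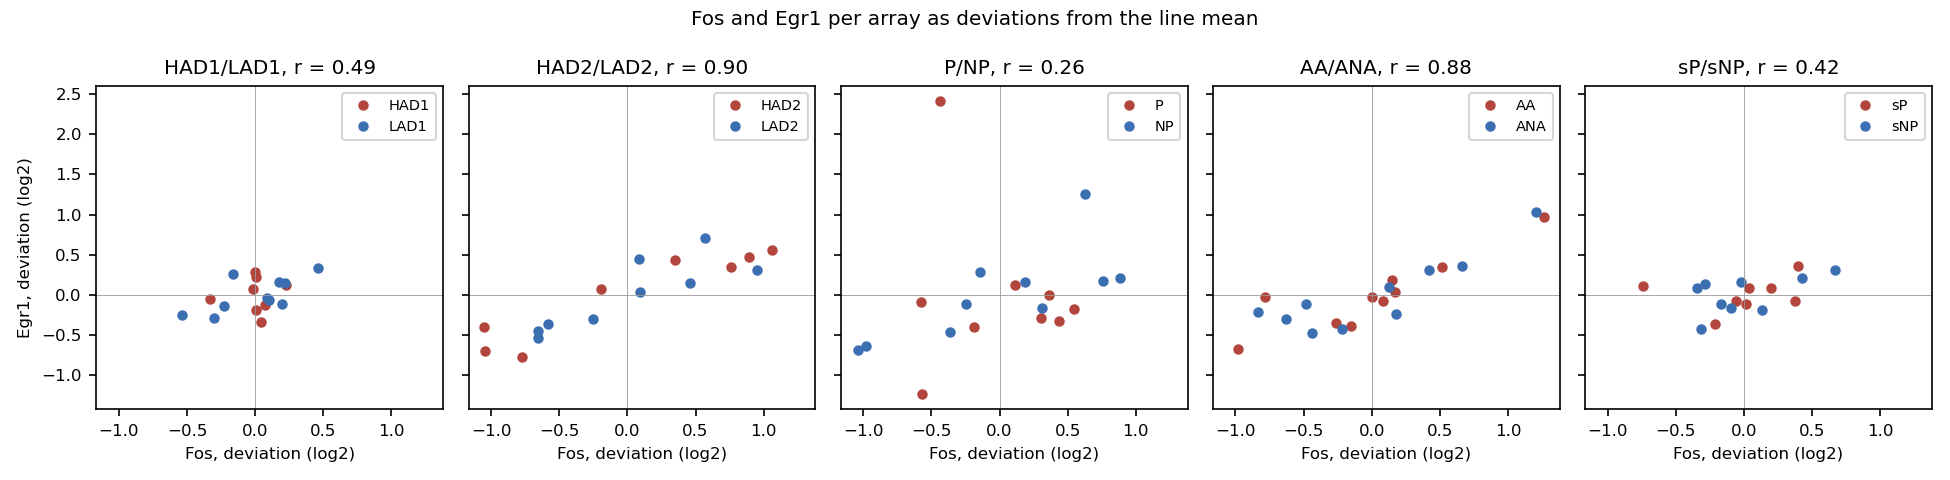
Fos (horizontal) against Egr1 (vertical) as deviations from the line mean in log2, 1 point per array (red for the high- and blue for the low-consumption line), in the 5 line pairs. The points follow a line in HAD2/LAD2 (r = 0.90) and AA/ANA (r = 0.88), and in P/NP 1 array, P 10, lies far above the others.

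Nr4a1 and Fosb were the other members that moved with these. Egr1 and Nr4a1 correlated at r = 0.767 and rho = 0.771 in HAD1/LAD1 (n = 18, permutation adjusted p = 0.0126 and 0.0186), and at 0.673 without the 2 farthest arrays. Fosb and Nr4a1 passed by r in 3 pairs: r = 0.662 and rho = 0.604 in HAD1/LAD1, r = 0.640 and rho = 0.490 in HAD2/LAD2, and r = 0.780 and rho = 0.419 in P/NP (permutation adjusted p of r = 0.0476, 0.0445 and 0.0273). By rho it passed in none of them, and without the 2 farthest arrays r was 0.504, 0.702 and 0.389. In HAD2/LAD2 Fosb also moved with Fos (r = 0.642, rho = 0.613, permutation adjusted p = 0.0145 and 0.0186) and with Egr1 (r = 0.672, rho = 0.735, permutation adjusted p = 0.0152 and 0.00675). The Fosb values lie under the floor, where a weak signal adds noise to each array. Of the windows searched above, that of Nr4a1 holds 4 copies of the core, that of Egr1 both the CArG box and the core, and that of Fosb no match. Any link between these matches and the covariation was not tested. By member, Egr1 was in 7 of the 14 positive correlations, Fosb and Nr4a1 in 6 each, Fos in 4, Junb and Klf2 in 2 each and Arc in 1.

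Klf2 followed Egr1 in HAD2/LAD2 (r = 0.723, rho = 0.733, permutation adjusted p = 0.0445 and 0.0692) and Fos in P/NP (r = 0.642, rho = 0.625, permutation adjusted p = 0.0476 and 0.120). Without the 2 farthest arrays these were 0.589 and 0.586. Of all pairs of tested genes, 1.11% reached the first r in HAD2/LAD2 and 11.7% the second in P/NP. Fos and Klf2 were above 0 in all 5 pairs, from 0.188 to 0.719. Junb and Nr4a1 moved together in the arrays labelled AA and ANA (r = 0.707, rho = 0.735, permutation adjusted p = 0.0143 and 0.0171), with r = 0.636 without the 3 arrays apart. Of the 45 correlations of Jun, 0 passed as positive, their median was -0.042, and its r with Junb was -0.215, -0.390, -0.432, 0.045 and 0.017 in the order of the pairs above. The P/NP values of Jun rest on the array labelled P 10: without it, r went from -0.432 to 0.306 with Junb, from -0.874 to 0.113 with Fosb, from -0.827 to 0.075 with Egr2, from -0.566 to 0.409 with Arc and from -0.804 to -0.329 with Egr1. The correlations of Jun and Klf2 use 1 probe set each. The brightest Jun probe set correlated with its other 2 at -0.010 and 0.635 in HAD1/LAD1 and at 0.016 and -0.386 in AA/ANA. The 2 brightest Klf2 probe sets correlated at -0.172 in HAD1/LAD1, 0.196 in HAD2/LAD2 and -0.142 in AA/ANA, against 0.542 in P/NP and 0.536 in sP/sNP. Egr2 and Ier2 also had 0 positive correlations past the threshold.

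**Figure D5:**
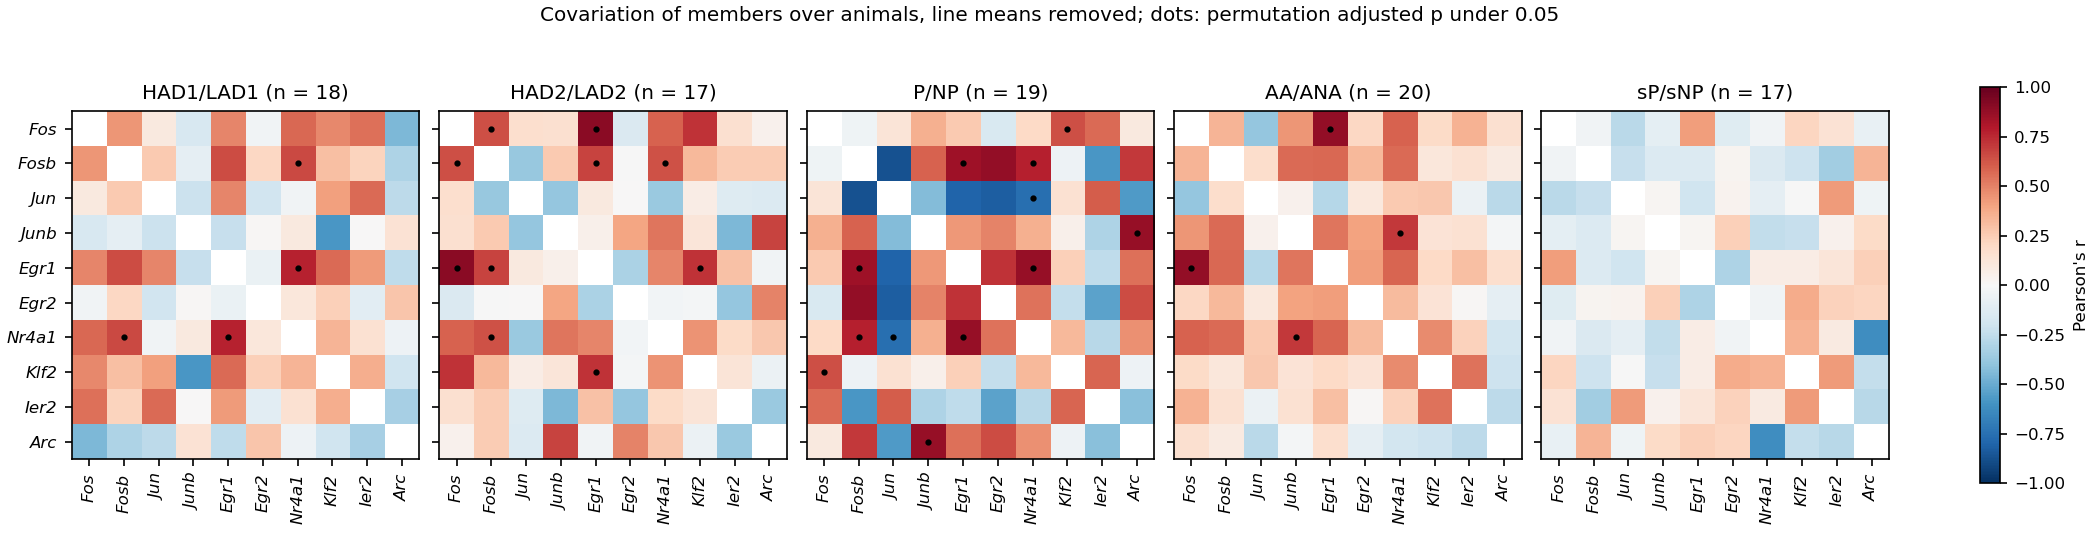
Pearson's r between members over the arrays of each line pair, with line means removed (colour scale from -1 to 1); a dot marks a permutation adjusted p under 0.05. The darkest red cell of HAD2/LAD2 and of AA/ANA is Fos with Egr1, the Jun row is blue in P/NP against Fosb, Egr1, Egr2 and Nr4a1 (r with Fosb and Egr2 is 0.113 and 0.075 without P 10), and sP/sNP has no dot.

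In P/NP many values turned on 1 array. P 10 had the highest Egr1, Fosb (6.74 against 4.69 to 5.08 on the other P arrays), Egr2 (5.97 against 5.17 to 5.34), Arc (7.84 against 6.19 to 6.94), Junb (8.17 against 7.21 to 7.72) and Nr4a1 (8.41 against 6.89 to 7.76) of its line, and the lowest Jun and Ier2 (7.08 against 7.36 to 7.75). Its Fos, at 8.93, lay inside the range of the other P arrays, 8.79 to 9.91. The mean of 12 dopamine neuron markers was 8.49 on P 10, against 10.41 to 12.78 on the other P arrays and 9.50 to 12.42 in NP, and its Th was 9.12 against 11.38 to 14.95 on the other P arrays. Even so, Th on P 10 was above the floor. The mean of general neuron markers was 12.39 there against 12.79 to 13.16, that of endothelial and pericyte markers 8.89 against 9.09 to 9.31, and that of microglia markers 9.39 against 8.38 to 9.18. The array labelled NP 8, lowest in Th, had the highest Fos (10.30), Junb (8.10) and Arc (7.25) of the NP line. Their part in the member values was not tested.

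Without P 10 the correlation of Fosb with Egr1 in P/NP went from 0.850 to 0.544, that of Fosb with Nr4a1 from 0.780 to 0.613, that of Egr1 with Nr4a1 from 0.869 to 0.739, and that of Jun with Nr4a1 from -0.757 to -0.469. By rho these 4 did not pass adjustment even with P 10 (rho = 0.379, 0.419, 0.568 and -0.510). Junb and Arc held their relation in this pair: r was 0.867 and rho 0.772 (n = 19, permutation adjusted p = 0.00113 and 0.0171), and r was 0.804 without P 10. Both fell as the dopamine neuron markers rose. Junb correlated with the mean of these markers at r = -0.920 and rho = -0.896 (permutation adjusted p = 0.003 and 0.009 over 300 correlations with array measures), and at -0.825 without the 2 farthest arrays. For Arc r was -0.889 and rho -0.767 (permutation adjusted p = 0.0045 and 0.0372), and r = -0.787 without the 2 farthest. The share of all tested genes that reached such an r with these markers was not computed. Over all pairs of tested genes in P/NP the 5th percentile of r was -0.774. The correlation of Junb with Arc did not pass in any other pair. The part of the dissection in it was not tested.

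Of the 300 correlations with array measures, the 2 just given were those called by r. By rho alone, Ier2 also followed the difference between the 3' and 5' Gapdh probe sets, which grows as RNA is degraded or copied short, in HAD1/LAD1 (rho = 0.779, r = 0.703, permutation adjusted p = 0.030 and 0.0618). Egr1, Fosb, Jun, Klf2, Fos and Nr4a1 correlated with it there at r = 0.638, 0.581, 0.576, 0.562, 0.514 and 0.472, below the threshold after adjustment, so that Junb alone of the 7 tested members was near 0 (r = 0.120). With the Gapdh signal regressed out, the HAD1/LAD1 correlation of Fos with Egr1 went from 0.489 to 0.244, and that of Egr1 with Nr4a1 from 0.767 to 0.687. The median r over all member pairs in HAD1/LAD1 went from 0.145 to a negative value, given in the last section. In HAD2/LAD2 and AA/ANA the correlation of Fos with Egr1 was 0.894 and 0.853 after the same step. The Gapdh signal itself was 1.895 ± 0.136 (SD) in HAD1 and 1.78 ± 0.102 in LAD1. The exact permutation test gave p = 0.056, or 0.279 adjusted over the 5 pairs. In HAD2 it was 3.415 ± 0.309 and in LAD2 3.582 ± 0.383 (p = 0.34, exact permutation test). The part of this signal in the member differences was not tested. Jun rose as the dopamine neuron markers fell in HAD1/LAD1 (rho = -0.763, r = -0.639, permutation adjusted p = 0.0372 and 0.117), and by rho Junb also fell with the array median in P/NP (rho = -0.733, permutation adjusted p = 0.0372).

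Genes outside the group were ranked by how closely they followed the mean of the 7 tested members, each scaled to its spread: the median r over the 5 line pairs, with r above 0 in all 5. This is a description over 91 arrays, with no test. The first was Crtc2, a coactivator of CREB, with r = 0.678 and 0.617 in the HAD1 and HAD2 pairs, 0.129 in P/NP, 0.615 in AA/ANA and 0.226 in sP/sNP (median 0.615). Nfkbia, the inhibitor of NF-kappa-B that is itself an early response gene, followed with a median of 0.604 and a lowest r of 0.310. Klf4, a relative of Klf2, had a median of 0.561 and a lowest r of 0.305. The others of the first 10 were Taok3 (0.553), Angptl4 (0.549), Prickle1 (0.538), Tob2 (0.527), Lamb2 (0.488), St6galnac4 (0.463) and Cic (0.456). Tob2, an antiproliferative factor that acts in mRNA turnover, was steady over the pairs, from 0.338 to 0.731, while Taok3, Angptl4 and Prickle1 were close to 0 in AA/ANA or sP/sNP. Only genes above 0 in every pair were ranked, 438 of the 11082 tested genes before members and predicted symbols were passed over. The first 50 genes, beside 11082 tested in all, held 3 of 30 other rapid response genes and 2 of 7 relatives of the EGR, NR4A and KLF members. The first 50 also held 1 of 25 upstream kinases and factors, 0 of 5 relatives of AP-1 and 0 of 11 effector genes. They also held 2 of 19 endothelial and pericyte markers, Pecam1 and Tek, and 6 of these 19 were above 0 in every pair, beside 4 of the 30 rapid response genes and 438 of all tested genes. The median of the median r was 0.264 for the 5 tested relatives of AP-1, 0.166 for the 19 endothelial and pericyte markers, 0.161 for the 30 rapid response genes and -0.272 for the 12 dopamine neuron markers, beside 0.008 over all tested genes. Of the 5 relatives of AP-1, 0 were above 0 in every pair, and Jund, Mafk and Fosl1 had a lowest r of -0.52, -0.57 and -0.68. Of the 11 effector genes 0 were above 0 in every pair either, so neither list could enter the first 50.

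Genes of the wider pathway that were called between lines are given here beside the shares of all tested genes. The share of all tested genes called higher in the high-consumption line was 2.08% in HAD1/LAD1, 3.36% in HAD2/LAD2, 1.49% in AA/ANA and 0.767% for the average, and the share called lower was 1.77%, 2.1%, 1.45% and 0.632%. None of the 5 tested AP-1 relatives was called in a pair. Of 7 tested relatives of the EGR, NR4A and KLF genes, 1 was called: Nab1, a corepressor that binds EGR proteins, was higher in arrays labelled AA (10.47 against 10.14, difference 0.32 ± 0.08, limma adjusted p = 0.00828; 0.35, adjusted p = 0.00753, without the 3 arrays apart). Of 30 other rapid response genes, Crem, which encodes CRE-binding activators and repressors, was lower in HAD1 (-0.20 ± 0.06, adjusted p = 0.0385) and Midn, whose protein promotes the breakdown of early gene products, was higher in HAD2 (0.17 ± 0.05, adjusted p = 0.0321). Among 11 effector genes, Nptx1, a secreted pentraxin that gathers AMPA receptors at synapses, was lower in HAD2 (11.15 against 11.95, difference -0.81 ± 0.11, adjusted p = 1.97e-08).

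Of 25 upstream kinases and factors, 2 were called. Creb1, which encodes the factor that binds the CRE, was lower in arrays labelled AA (8.25 against 8.86, difference -0.61 ± 0.13, adjusted p = 0.00107; -0.84, adjusted p = 4.5e-08, without the 3 arrays apart). Rps6ka3, the kinase RSK2 that phosphorylates CREB and Fos, was higher in HAD2 (0.38 ± 0.12, adjusted p = 0.0399). Each of these genes was called in 1 of the 5 pairs, against the shares of all genes given above, and the median differences of these 5 lists lay between -0.07 and 0.13. Of 11 heat shock genes, another early response, 4 were called in HAD2/LAD2 and 0 in the other pairs, with Hspa4 (0.70 ± 0.15, adjusted p = 0.000891) and Hspa1a (0.78 ± 0.17, adjusted p = 0.00108) the largest. Of 19 endothelial and pericyte markers, 4 were called higher and 2 lower in HAD2/LAD2, 1 higher and 1 lower in HAD1/LAD1, and 2 higher in AA/ANA.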

How the data were processed

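Ventral tegmental area RNA of 91 rats was measured on 1 array each. The deposited table holds log2 values for 31099 probe sets, which per the submitters' processing notes the authors computed by RMA. RMA subtracts background, gives arrays run together the same distribution and condenses probes into probe sets, so changes shared by all genes are removed. Version and runs: not given in the sources used here. Columns of no sample numbered 0. Samples were grouped by the line in their labels.

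The platform annotation named the probe sets (20826 with 1 symbol, 436 with several, 9780 with none, 57 controls). The brightest probe set of each gene was used. Genes whose highest line mean reached the 40th percentile of all values, 7.02, were tested: 11082. All arrays entered 1 limma fit of 10 line means (81 residual degrees of freedom), with 2-sided tests and Benjamini-Hochberg adjustment within a contrast, called under 0.05. Correlations used deviations from line means, with 100000 permutations within lines. Array measures were compared by exact permutation tests, or 100000 resamples where both lines had 10 arrays.

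Members, gene lists, tests and alternatives were chosen with earlier results of these data known. Genes outside the members were named by rule: up to 4 called genes a list and pair, and the 10 most like the members, passing over predicted symbols. The lists also covered markers of endothelium, meninges, microglia, astrocytes, oligodendrocytes, neurons, dopamine and GABA neurons, ependyma and blood. Promoters came from RefSeq (GRCr8). The fit and the permutation test were tested on simulated data. Versions were scipy 1.17.1, numpy 2.4.6, matplotlib 3.10.9 and pandas 2.3.3 under Python 3.11.15, and limma 3.58.1 under R 4.3.3.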

Additional observations from a re-analysis of the deposited data

Results flagged for a closer look

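Single arrays that lay apart from the rest of their line were looked for in the 10 members and 10 lines, 100 groups, with Dixon's gap test. It marked 10 of them, and chance marks about 1 in 20 groups. The array labelled P 10 was marked for 5 members: Fosb at 6.743, Egr1 at 11.32, Egr2 at 5.972 and Arc at 7.839 were the highest of the line, and Jun at 9.170 the lowest. The next P arrays were at 5.076, 9.024, 5.341, 6.940 and 9.987. The array labelled NP 10 was marked for 3, as the highest of its line: Fosb at 5.278, Egr1 at 9.739 and Nr4a1 at 7.924. Fos was lowest in HAD1 26 at 10.21, with the next array at 10.52, and Egr2 was lowest in HAD1 27 at 5.818. No member's line difference passed the test of dependence on the pair.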

How the results depend on the processing

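Of 672 alternative values for the 49 member tests, 670 stayed on their side of the threshold, 2 passed it and 42 uncalled values had the other sign. The number of members called changed only in HAD2/LAD2, from 0 to 1 (Jun), when each pair was fitted alone, with array weights, and without P 10 among the arrays left out in turn, where it was 0 to 1. Array weights moved the counts of all genes called to 742 in HAD1/LAD1, 971 in HAD2/LAD2, 1500 in P/NP, 981 in AA/ANA, 3 in sP/sNP, 911 for the average and 2903 for the dependence on the pair, with 0 members called outside HAD2/LAD2. Fitted alone, AA/ANA gave 153 genes, and every probe set as its own row gave 235 for the average. In the covariation, the median r over member pairs left its leave-one-out range with rho in P/NP (0.156), without the 2 farthest arrays in sP/sNP (0.0568), with quantile normalization in AA/ANA (0.167), with the Gapdh signal regressed out in HAD1/LAD1 (-0.0292) and without the 3 arrays apart in AA/ANA (0.292). The replicate numbers are shared only in P/NP and sP/sNP, where same-numbered arrays correlated from -0.739 to 0.733 and from -0.371 to 0.291, so they were not taken as pairs. With the number as a replicate block, 17 genes were called in P/NP and no member. The cause of these moves was not tested. The number of arrays and the dim probe sets of Fosb, Egr2 and Arc limit what can be seen.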
